A study of Mus musculus with 24 samples.

Results

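The genes described here are 10 regulators of mitochondrial biogenesis, the making of new mitochondria, taken by symbol from a table of 24537 genes counted in whole muscles. They are the coactivators Ppargc1a and Ppargc1b, the nuclear receptors Esrra, Esrrg, Ppara and Ppard, the transcription factor Nrf1, the mitochondrial DNA (mtDNA) factors Tfam and Tfb2m, and Prkaa2, a catalytic subunit of AMP-activated protein kinase (AMPK). All 10 were found and passed the filter on low counts, and their lowest count in any library was 298 (Ppargc1b).

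RNA was sequenced from the extensor digitorum longus (EDL, a mostly fast-twitch muscle) and the soleus (SOL, a mostly slow-twitch muscle) of mice aged 2 months, in 12 groups of 2 libraries each. Cre+ mice were Acta1-Cre+/4Fhet and Cre- mice, the controls, were Acta1-Cre-/4Fhet. Both carried the doxycycline (Dox)-inducible cassette of Oct4, Sox2, Klf4 and c-Myc (OSKM) and an rtTA transactivator behind a LoxP-STOP-LoxP block, were kept on regular chow, and drank water with Dox at 1 mg/ml, for 2.5 days, for 5.5 days or for 8.5 days. Cre under the Acta1 (skeletal muscle actin) promoter removes the block in myofibers, so the other cells of the same whole muscle are not meant to express the cassette. In whole muscle, fewer cells of a type and less RNA per cell cannot be told apart.

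Mitochondria are built from proteins of the nuclear genome and from the few encoded by mtDNA. PGC-1α (Ppargc1a) and PGC-1β (Ppargc1b) are coactivators that dock on estrogen-related receptors, PPARs and Nrf1 and raise genes of oxidative phosphorylation (OXPHOS) and fatty acid oxidation. Nrf1 in turn activates genes such as Tfam, which packages and transcribes mtDNA, and AMPK senses low energy and acts on PGC-1α. In muscle this network is known for its part in endurance training and in oxidative fibers.

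Total counts ranged from 36088781 to 54679082 per library, so 3 counts, the limit that a count of 0 allows, corresponded to between 0.0549 and 0.0831 CPM (counts scaled to a library total of 1000000). Summed CPM of Pou5f1 (Oct4), Sox2, Klf4 and Myc checked the genotype labels. It was between 176.1 and 590.4 in Cre+ EDL libraries of 2.5 days and between 462.0 and 571.1 in those of 8.5 days, against at most 59.9 in Cre- EDL libraries. In Cre+ SOL libraries it was between 83.6 and 106.2 after 2.5 days and between 76.7 and 140.4 after 8.5 days, against at most 74.8 in Cre- SOL libraries. The sum includes Klf4, whose counts in SOL after 8.5 days overlapped, at 3583 and 1908 in Cre+ and 1495 and 2855 in Cre-. Pou5f1 had between 313 and 857 counts in Cre+ SOL libraries of 2.5 and 8.5 days, against at most 2 in Cre- SOL libraries. Of the libraries labelled Cre+ of 5.5 days, 1 EDL library was at 251.6, as its label says. The other EDL library was at 35.2, against 33.1 and 33.8 in Cre- EDL of that day, but held 64 counts of Pou5f1 and 36 of Sox2, against at most 2 and 7 there. The SOL libraries, at 24.2 and 44.8, were below Cre- SOL of that day, and held 4 and 22 counts of Pou5f1 and the same of Sox2, against at most 1 and 5 there. Their Klf4 counts were 739 and 1653, against 2391 and 1907 in Cre- SOL of that day. Since the summed level of these 3 libraries was near or below the Cre- level of that day, values of that day are given apart. Slow and oxidative fiber markers, 8 of 8, were lower in Cre- EDL than in Cre- SOL at all 3 times, and 7 to 9 of 9 fast fiber markers were higher, as the muscle labels say. Transcripts of liver, a tissue outside the dissection, summed to between 37.8 and 202.7 CPM in Cre- SOL libraries of 8.5 days and between 12.6 and 14.5 in Cre- EDL libraries of 8.5 days, against at most 6.13 elsewhere.

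Levels are given as FPKM, the count per kilobase of exon at a library total of 1000000, and differ widely between the genes. Over the 24 libraries Esrra (ERRα, the main estrogen-related receptor of muscle) was highest, between 46.8 and 84.6 FPKM. Prkaa2 followed between 13.8 and 38 FPKM, then Ppard between 11.6 and 18.7 and Tfam between 10.4 and 16.5. The coactivators were among the lowest, Ppargc1a between 3.18 and 7.02 FPKM and Ppargc1b between 1.81 and 5.75. Nrf1 had a narrow range, from 4.38 to 6.01 FPKM, whereas Esrrg (ERRγ) ran from 2.75 to 18.4.

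**Figure D1:**
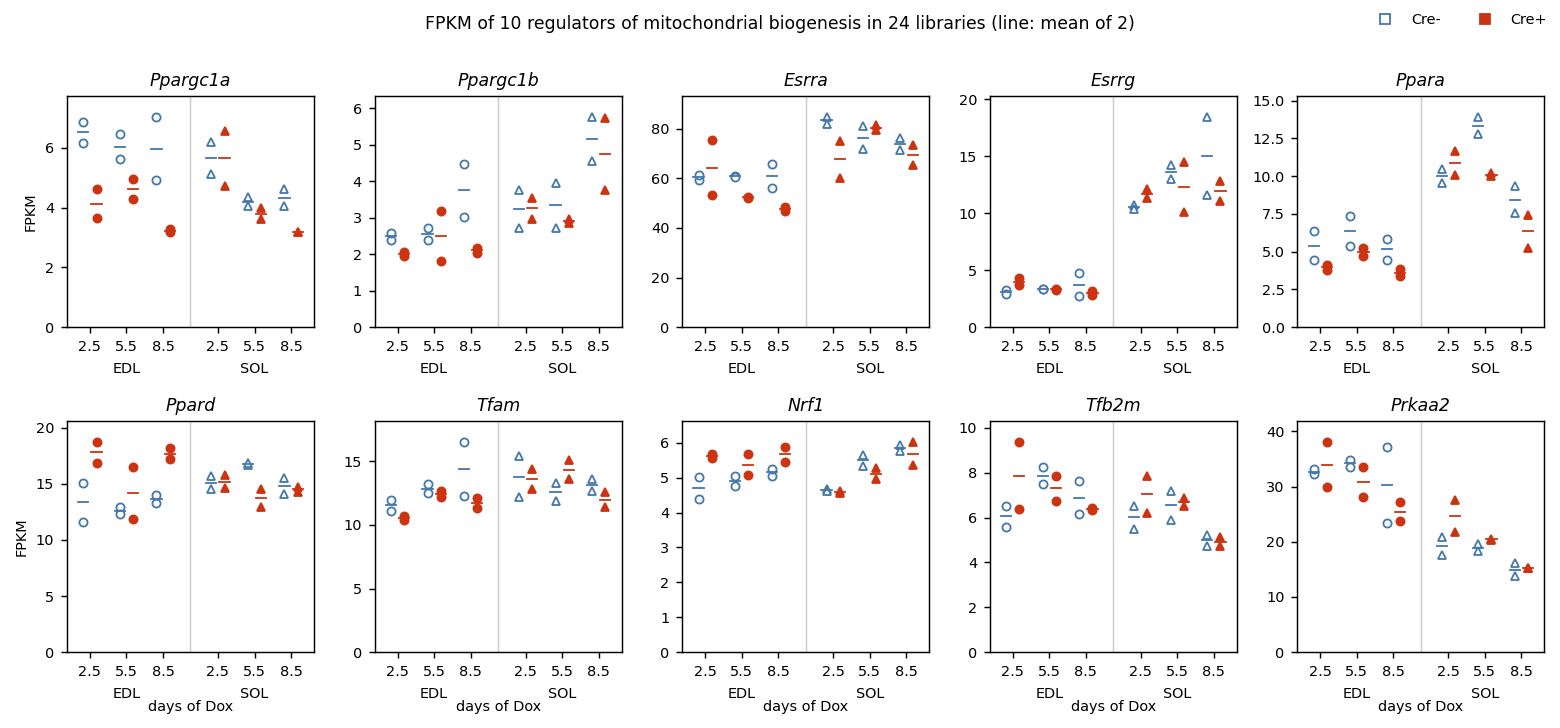
Each panel plots 1 gene in FPKM (linear axis from 0) against days of Dox, EDL as circles on the left and SOL as triangles on the right, with 2 libraries per group (Cre- open blue, Cre+ filled red) and a line at the mean. Ppargc1a of Cre+ EDL sat at 3.27 and 3.18 FPKM after 8.5 days, below the Cre- EDL libraries at 7.02 and 4.93, while Esrrg separated the muscles in every group.

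Promoter windows from RefSeq (GRCm38.p6, 250 bases before the start site and 50 from it on) were found for 9 of the 10 genes, all but Ppargc1b. The 4 windows below are those of Ppargc1a, Esrra, Ppara and Tfam, shown 5′ to 3′ on the strand of the gene. Ppargc1a and Ppara were called lower in Cre+ EDL after 2.5 and 8.5 days, Esrra after 8.5 days only. Tfam was not called. Capitals mark a match to 1 of 7 searched motifs.
Ppargc1a promoter, chr5:51567676-51567975, minus strand: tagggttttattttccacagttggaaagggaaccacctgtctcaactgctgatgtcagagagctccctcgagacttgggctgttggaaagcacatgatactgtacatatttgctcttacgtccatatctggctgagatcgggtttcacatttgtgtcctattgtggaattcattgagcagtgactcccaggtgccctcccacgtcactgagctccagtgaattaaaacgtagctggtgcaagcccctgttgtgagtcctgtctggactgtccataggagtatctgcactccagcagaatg
Esrra promoter, chr19:6921759-6922058, minus strand: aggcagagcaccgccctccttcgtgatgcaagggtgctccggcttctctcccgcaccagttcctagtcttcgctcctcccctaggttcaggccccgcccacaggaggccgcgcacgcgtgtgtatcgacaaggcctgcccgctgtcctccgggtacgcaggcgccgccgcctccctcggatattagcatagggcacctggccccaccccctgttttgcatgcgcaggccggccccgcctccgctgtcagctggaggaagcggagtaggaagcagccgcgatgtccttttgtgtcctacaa
Ppara promoter, chr15:85735526-85735825, plus strand: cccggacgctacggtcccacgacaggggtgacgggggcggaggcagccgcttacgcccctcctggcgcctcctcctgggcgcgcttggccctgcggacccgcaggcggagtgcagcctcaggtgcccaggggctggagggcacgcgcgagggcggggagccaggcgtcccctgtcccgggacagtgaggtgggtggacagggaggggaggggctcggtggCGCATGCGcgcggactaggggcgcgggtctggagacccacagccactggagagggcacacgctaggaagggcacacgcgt
Tfam promoter, chr10:71237995-71238294, minus strand: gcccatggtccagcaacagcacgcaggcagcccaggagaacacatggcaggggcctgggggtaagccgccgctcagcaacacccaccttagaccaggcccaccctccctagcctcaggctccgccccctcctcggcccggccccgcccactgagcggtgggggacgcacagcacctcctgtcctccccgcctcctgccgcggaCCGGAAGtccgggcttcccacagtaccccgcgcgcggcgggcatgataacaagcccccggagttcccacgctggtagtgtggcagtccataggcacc

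The motifs were searched on both strands and only as exact letters. The core of the NRF1 site, CGCATGCG, was in the windows of Ppara (first base at position -30 from the start site) and Tfb2m (position 12), and in 1.87% of 32851 promoters. The ETS core CCGGAAG, bound by GABP, was in the Tfam window at position -47 and in 8.86% of all promoters. The nuclear receptor core AAGGTCA and its longer form TCAAGGTCA bound by estrogen-related receptors, the E-box CACGTG, the CRE site TGACGTCA and the MEF2 site CTAAAAATA matched in 0 windows of these genes, and in 4.72%, 0.423%, 7.15%, 1.79% and 0.517% of all promoters. The windows differ in base composition. That of Ppargc1a had 48.7% G or C and 5 CpG dinucleotides, against 66.0% and 25 in Esrra, 74.7% and 30 in Ppara and 70.3% and 21 in Tfam, with a median of 52.7% G or C over all promoters. The Ppargc1a window lies upstream of the start of the transcript that was counted, and it holds no start site of that transcript.

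In EDL muscles of Cre+ mice, the coactivators and the receptor Ppara fell at 2.5 days of Dox and again at 8.5 days, and Esrra fell at 8.5 days. Ppargc1a was at 50.6% of the Cre- level after 2.5 days and at 47.8% after 8.5 days, in fits scaled by TMM (edgeR's scaling factor for library composition). Of the 10 genes, 3 were called lower after 2.5 days and 4 after 8.5 days, and 0 were called higher. Genes were called where edgeR's quasi-likelihood test gave an adjusted p (Benjamini-Hochberg, over all genes tested) below 0.05 and the fitted change exceeded 0.5 in either direction on the log2 scale. Over all 15372 genes the share called was 24% after 2.5 days and 14.1% after 8.5 days, and 10.2% and 6.50% of all genes tested were called lower. The median log2 fold change of the 10 genes was -0.26 and -0.48, against -0.0473 and -0.0173 over all genes. An exact permutation test of 1 gene, 2 libraries against 2, cannot go below p = 0.333, so the adjusted p values rest on the spread shared across genes and groups.

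Ppargc1a (chromosome 5, 51454249 to 51553921, minus strand) was at 6.88 and 6.17 FPKM in Cre- EDL and at 4.61 and 3.64 FPKM in Cre+ EDL after 2.5 days. After 8.5 days it was at 7.02 and 4.93 FPKM in Cre- EDL and at 3.27 and 3.18 FPKM in Cre+ EDL. All 4 Cre+ values lay below all 4 Cre- values. The log2 fold change was -0.98 (standard error 0.19, adjusted p = 0.00232, edgeR) after 2.5 days and -1.07 (standard error 0.19, adjusted p = 0.003) after 8.5 days. Both calls held with each library left out in turn, at log2 fold changes from -1.21 to -0.78 after 2.5 days and from -1.29 to -0.81 after 8.5 days. The counted record, NR_027710, is 1 transcript of 6482 exonic bases, and the counts do not separate the promoters or splice forms of the gene.

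Ppargc1b (chromosome 18, 61298136 to 61400431, minus strand) was at 2.38 and 2.59 FPKM in Cre- EDL and 1.95 and 2.06 in Cre+ EDL after 2.5 days. After 8.5 days it was at 4.47 and 3.03 FPKM in Cre- EDL and 2.18 and 2.03 in Cre+ EDL. The groups did not overlap on either day, but the Cre- libraries of 8.5 days lay far apart. The log2 fold change was -0.64 (standard error 0.22, adjusted p = 0.0463, edgeR) and -1.01 (standard error 0.22, adjusted p = 0.00861). The call of 2.5 days stood next to its threshold and was lost with any 1 of its 4 libraries left out (adjusted p from 0.0919 to 0.196). The call of 8.5 days was lost without Cre- replicate 1 (-0.72, adjusted p = 0.0902) and without Cre+ replicate 1 (-1.01, adjusted p = 0.0769).

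Among the receptors, Ppara (PPARα, a fatty acid sensor that drives fat oxidation genes, chromosome 15, 85735776 to 85806851, plus strand) fell on both days. It was at 6.36 and 4.45 FPKM in Cre- EDL against 3.8 and 4.14 in Cre+ EDL after 2.5 days, and at 5.87 and 4.42 against 3.36 and 3.83 after 8.5 days. The Cre+ libraries lay below the Cre- libraries on both days, with the second Cre- library close to them. The log2 fold change was -0.77 (standard error 0.19, adjusted p = 0.0103, edgeR) after 2.5 days and -0.69 (standard error 0.19, adjusted p = 0.0296) after 8.5 days. Without Cre- replicate 1 it was -0.52 (adjusted p = 0.122) after 2.5 days and -0.49 (adjusted p = 0.215) after 8.5 days. The calls were also lost without Cre+ replicate 2 of 2.5 days (-0.79, adjusted p = 0.0609) and without Cre+ replicate 1 of 8.5 days (-0.55, adjusted p = 0.24).

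Esrra (chromosome 19, 6910977 to 6921808, minus strand) was at 65.6 and 56.2 FPKM in Cre- EDL and 46.8 and 48.5 in Cre+ EDL after 8.5 days, with no overlap. Its log2 fold change was -0.53 (standard error 0.15, adjusted p = 0.0298, edgeR), just past the fold limit. The call was lost without Cre- replicate 1 (-0.43, adjusted p = 0.166), without Cre+ replicate 1 (-0.45, adjusted p = 0.216) and without Cre+ replicate 2 (-0.61, adjusted p = 0.0638). After 2.5 days the Cre+ EDL libraries stood on either side of the Cre- libraries, at 53.1 and 75.4 against 59.4 and 61.3 FPKM, and the log2 fold change was -0.25 (95% interval -0.57 to 0.07). Esrra shares 73 exonic bases with Trmt112 on the opposite strand and 91 with Mir6990. The libraries were stranded, and whether the counting used strand is not given in the sources used here.

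Esrrg (chromosome 1, 187609006 to 188214884, plus strand), a receptor linked to oxidative fibers, did not pass. After 2.5 days it was at 3.27 and 2.92 FPKM in Cre- EDL and 3.65 and 4.31 in Cre+ EDL. Its log2 fold change was 0.03 (95% interval -0.45 to 0.51) after 2.5 days and -0.48 (-0.96 to -0.01, adjusted p = 0.163, edgeR) after 8.5 days, when the Cre- EDL libraries were at 4.72 and 2.75 FPKM and the Cre+ libraries at 2.84 and 3.19. Ppard (PPARδ, another fatty acid sensor, chromosome 17, 28232754 to 28301469, plus strand) was at 15.1 and 11.6 FPKM in Cre- EDL against 16.9 and 18.7 in Cre+ EDL after 2.5 days, and at 13.3 and 14 against 17.2 and 18.2 after 8.5 days. The Cre+ libraries were above the Cre- libraries in FPKM on both days. In the TMM-scaled fit the log2 fold change was 0.09 (95% interval -0.18 to 0.37) and 0.20 (-0.07 to 0.47), and Ppard was not called.

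Nrf1 (chromosome 6, 30047988 to 30153458, plus strand), whose range of FPKM was narrow, was not called. It was at 5.02 and 4.38 FPKM in Cre- EDL and 5.55 and 5.68 in Cre+ EDL after 2.5 days, and at 5.04 and 5.26 against 5.87 and 5.46 after 8.5 days. The Cre+ libraries lay above the Cre- libraries in FPKM on both days. In the TMM-scaled fit its log2 fold change was -0.07 (95% interval -0.32 to 0.17) and -0.04 (-0.29 to 0.20). These intervals leave out a fall of the size fitted for Ppargc1a.

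Tfam (chromosome 10, 71225477 to 71238044, minus strand) stood just short of the fold limit on both days. It was at 11.1 and 12 FPKM in Cre- EDL and 10.4 and 10.7 in Cre+ EDL after 2.5 days, and at 16.5 and 12.3 against 11.3 and 12.1 after 8.5 days. The groups did not overlap, and on both days the nearest libraries were close. In the fit the log2 fold change was -0.46 (standard error 0.15, adjusted p = 0.0317, edgeR) and -0.48 (standard error 0.15, adjusted p = 0.0431), so that Tfam passed the test but not the limit of 0.5 and was not called. Tfb2m (chromosome 1, 179528054 to 179546276, minus strand), a factor that mitochondrial RNA polymerase needs to start transcription, had a log2 fold change of 0.04 (95% interval -0.34 to 0.43) and -0.29 (-0.68 to 0.10). It was at 6.51 and 5.58 FPKM in Cre- EDL against 6.38 and 9.35 in Cre+ EDL after 2.5 days, and at 7.63 and 6.14 against 6.41 and 6.32 after 8.5 days. The groups overlapped on both days.

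Prkaa2 (chromosome 4, 105029650 to 105109898, minus strand), the AMPK subunit that dominates in muscle, was at 32.2 and 33.2 FPKM in Cre- EDL and 29.9 and 38 in Cre+ EDL after 2.5 days. After 8.5 days the Cre- libraries were at 37.1 and 23.4 FPKM and enclosed the Cre+ libraries at 23.7 and 27.2. In the fit its log2 fold change was -0.28 (95% interval -0.70 to 0.14) and then -0.42 (-0.84 to 0.00), and neither was called. Cre- EDL replicate 2 of 8.5 days was the lower Cre- library for Prkaa2, Esrrg, Tfam, Tfb2m, Ppargc1a, Ppargc1b, Ppara and Esrra alike. Without it 7 of the 10 genes were called lower, with Esrrg at -0.81 (adjusted p = 0.0168), Tfam at -0.66 (adjusted p = 0.0104) and Prkaa2 at -0.71 (adjusted p = 0.0192, edgeR). Without Cre- replicate 1, or without Cre+ replicate 1, of that day only Ppargc1a was called.

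**Figure D2:**
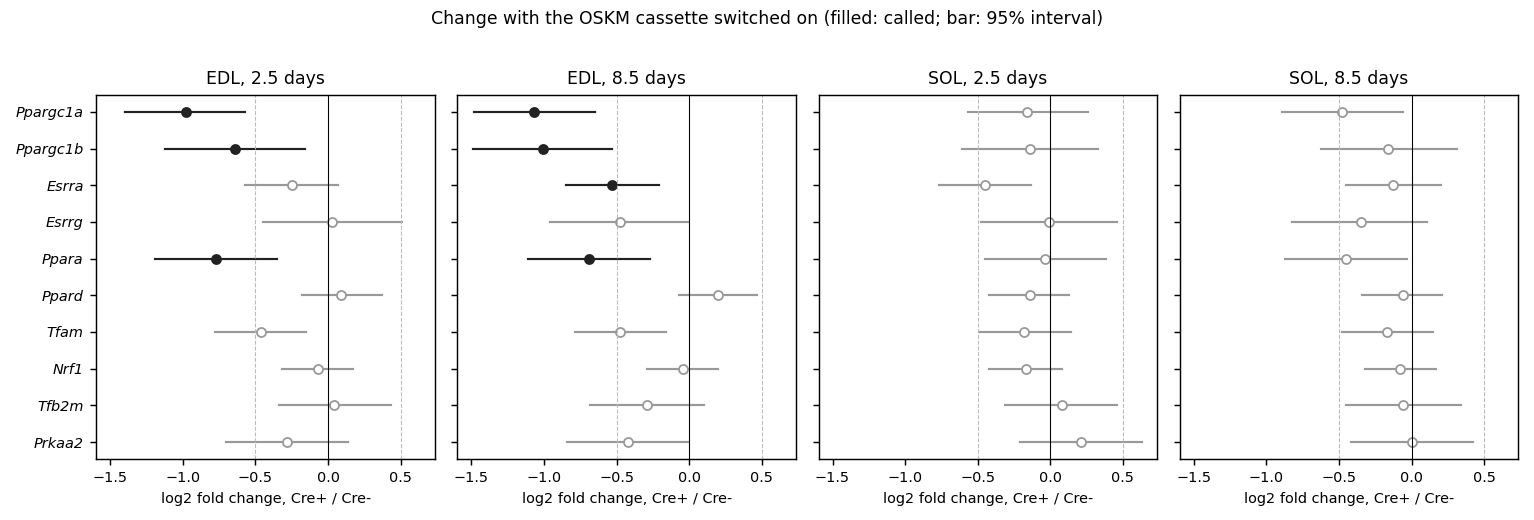
The log2 fold change of Cre+ over Cre- (x axis) is plotted for each gene in EDL and SOL after 2.5 and 8.5 days, with 95% intervals, filled points for called genes, and dashed lines at the fold limit of 0.5. In EDL 3 and then 4 genes were called, all to the left of 0, and in SOL 0.

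The sizes of these changes depend on how libraries are scaled. TMM factors computed over all 24 libraries were between 1.075 and 1.206 in Cre+ EDL libraries of 2.5 and 8.5 days. They were between 0.921 and 0.980 in Cre- EDL libraries of the same days. The fits of these days used factors computed on their 16 libraries, which are not given here. A ratio of FPKM, which uses the total count alone, lies above the fitted fold change. With library size alone the median over all genes tested became 0.282 after 2.5 days and 0.163 after 8.5 days. The calls over all genes went from 2118 higher and 1566 lower to 4207 higher and 610 lower after 2.5 days, and from 1173 higher and 999 lower to 1956 higher and 542 lower after 8.5 days. Ppargc1a was called on both days at that scaling as well (-0.66, adjusted p = 0.019, and -0.89, adjusted p = 0.00836, edgeR), and Ppargc1b after 8.5 days (-0.83, adjusted p = 0.0312). Ppargc1b of 2.5 days (-0.31, adjusted p = 0.355), Ppara (-0.45, adjusted p = 0.116, and -0.52, adjusted p = 0.106) and Esrra of 8.5 days (-0.35, adjusted p = 0.157) were not called. Among genes not called under either scaling, the sign turned from negative to positive for Esrra, Prkaa2 and Nrf1 after 2.5 days and for Nrf1 after 8.5 days.

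**Figure D3:**
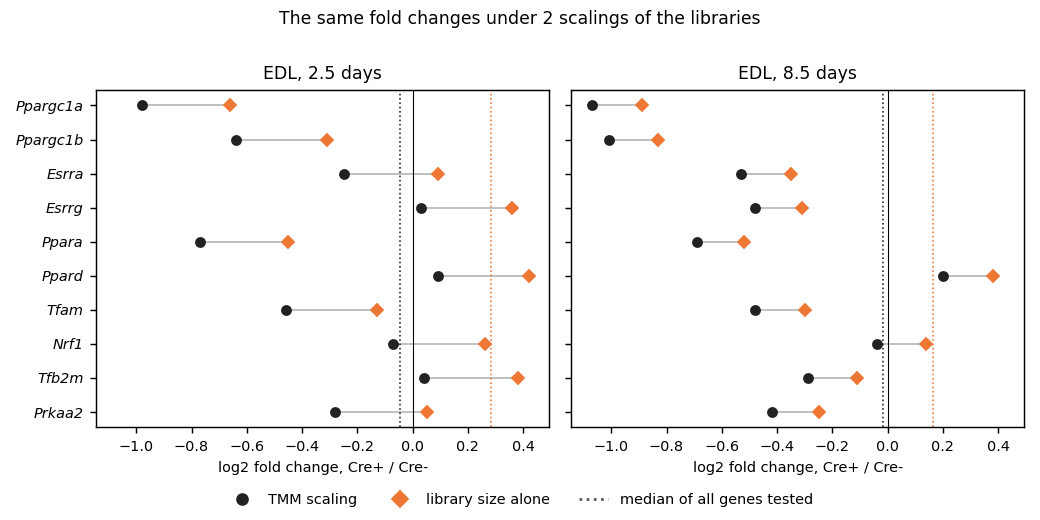
For EDL after 2.5 and 8.5 days, each gene's log2 fold change of Cre+ over Cre- (x axis) is shown under TMM scaling (black circles) and under library size alone (orange diamonds), with dotted lines at the median of all genes under each. Ppargc1a moved from -0.98 to -0.66 and from -1.07 to -0.89, staying left of both medians.

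Other cell markers moved in the same libraries. Of the fast fiber markers, 5 of 9 were lower in Cre+ EDL after 2.5 days and 2 of 9 after 8.5 days, with summed CPM between 103541.5 and 140323.3 in Cre+ and between 152508.6 and 167051.1 in Cre- after 2.5 days. Slow and oxidative fiber markers were not called in either direction. Endothelial markers were lower in Cre+ EDL after 2.5 days, 4 of 6, with summed CPM between 310.3 and 316.8 against 352.2 and 379.7. Liver transcripts were lower in Cre+ EDL after 8.5 days, 5 of 12, and 1 of 12 was higher after 2.5 days. No adipocyte, macrophage, fibroblast, Schwann cell or erythroid marker was called in Cre+ EDL on these days, and 1 of 6 satellite cell markers was higher on each. The part of these cells in the values of the 10 genes was not tested.

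In SOL muscles, where the cassette was expressed at lower levels, 0 of the 10 genes were called after 2.5 or 8.5 days, against 0.384% and 0.631% of all genes. DESeq2 also called 0 on both days. At an unadjusted p under 0.05 in edgeR there were 1 and 2 of the 10, against 2053 and 1015 of 15372 genes. Ppargc1a was at 5.13 and 6.21 FPKM in Cre- SOL and 4.73 and 6.56 in Cre+ SOL after 2.5 days, an overlap, with a log2 fold change of -0.16 (95% interval -0.57 to 0.26). After 8.5 days it was at 4.04 and 4.63 against 3.19 and 3.18 FPKM, with no overlap and a log2 fold change of -0.48 (-0.89 to -0.06, adjusted p = 0.633, edgeR). Ppara was at 7.56 and 9.35 against 7.41 and 5.27 FPKM after 8.5 days, with a log2 fold change of -0.45 (-0.87 to -0.03, adjusted p = 0.684). Esrra was at 82.1 and 84.6 against 75.2 and 60.3 FPKM after 2.5 days, with a log2 fold change of -0.45 (-0.77 to -0.13, adjusted p = 0.212). Prkaa2 went the other way after 2.5 days, at 17.6 and 20.9 FPKM in Cre- SOL and 21.8 and 27.5 in Cre+ SOL, with no overlap and a log2 fold change of 0.21 (-0.21 to 0.63, adjusted p = 0.695). The other log2 fold changes in SOL were between -0.35 and 0.08. All 12 liver transcripts were lower in Cre+ SOL after 8.5 days, and liver also expresses Ppara and Ppargc1a; the part of liver RNA in their values was not tested. The 95% interval in SOL reached below a log2 fold change of -0.5 for Ppargc1a and Ppargc1b on both days, for Esrra after 2.5 days and for Esrrg and Ppara after 8.5 days.

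The change in EDL was not shown to differ from that in SOL for any of the 10 genes in the fit of all 16 libraries. The share of all genes called for this difference was 4.25% after 2.5 days and 0.592% after 8.5 days, and DESeq2 called 0 of the 10 as well. For Ppargc1a the change in EDL minus that in SOL was -0.83 (95% interval -1.41 to -0.24, adjusted p = 0.101, edgeR) after 2.5 days and -0.59 (-1.17 to 0.00, adjusted p = 0.44) after 8.5 days. Without Cre+ EDL replicate 1 of 2.5 days, the library with the lower OSKM level, the first of these was -1.06 (adjusted p = 0.0328) and called. For Ppara the difference was -0.74 (-1.33 to -0.15, adjusted p = 0.143) after 2.5 days, and for Ppargc1b it was -0.85 (-1.52 to -0.19, adjusted p = 0.305) after 8.5 days. At an unadjusted p under 0.05 there were 2 of the 10 on each day, against 3221 and 1729 of 15372 genes.

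Nor was the change after 8.5 days shown to differ from that after 2.5 days. In both muscles 0 of the 10 genes and 0 of 15372 genes (0%) were called by edgeR, DESeq2 called 0 of the 10, and 0 of the 10 were under an unadjusted p of 0.05, against 1469 genes in EDL and 403 in SOL. For Ppargc1a in EDL the difference between days was -0.08 (95% interval -0.67 to 0.50) and for Esrra, called on 1 day only, it was -0.28 (-0.74 to 0.17).

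At 5.5 days, in the fit of 24 libraries, 0 of the 10 genes were called in either muscle by edgeR or DESeq2, against 0.304% of 15478 genes in EDL and 0% in SOL. At an unadjusted p under 0.05 there were 3 of the 10 in EDL and 2 in SOL, against 1307 and 597 of 15478 genes. In the EDL libraries labelled Cre+, Ppargc1a was at 4.96 FPKM in the library with the lower summed OSKM level and 4.28 in the other, below Cre- at 6.46 and 5.61, with a log2 fold change of -0.53 (95% interval -0.89 to -0.17, adjusted p = 0.288, edgeR). Ppara was at 4.69 and 5.23 FPKM against 7.38 and 5.4. Leaving out either library left 0 of the 10 genes called. In the SOL libraries labelled Cre+ the log2 fold change of Ppara was -0.46 (-0.84 to -0.07, adjusted p = 1), and the summed OSKM level of both of these libraries was below that of both Cre- libraries.

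Between the muscles of Cre- mice, Esrrg and Ppara were lower in EDL and Prkaa2 was higher, on each of the 3 days. These Cre- libraries are also the controls of the comparisons above. After 2.5 days 3 of the 10 genes were called, after 8.5 days 4 and after 5.5 days 4, against 16%, 18.2% and 19.8% of all genes. Esrrg was between 2.75 and 4.72 FPKM in 6 Cre- EDL libraries and between 10.4 and 18.4 in 6 Cre- SOL libraries, with no overlap. Its log2 fold change, EDL over SOL, was -1.67 (standard error 0.22, adjusted p = 0.000219, edgeR), -1.91 (5.5 days, standard error 0.22, adjusted p = 6.72e-06) and -1.91 (8.5 days, standard error 0.22, adjusted p = 0.0001). Every one of these calls held with each library of the comparison left out.

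Ppara was also lower in EDL, between 4.42 and 7.38 FPKM against 7.56 and 13.9 in SOL. Its log2 fold change was -0.80 (adjusted p = 0.0122, edgeR) after 2.5 days, -0.95 (adjusted p = 0.00113) after 5.5 days and -0.63 (adjusted p = 0.0364) after 8.5 days. The call of 2.5 days was lost without Cre- SOL replicate 1 or Cre- EDL replicate 2 (adjusted p = 0.0896 and 0.125), and that of 8.5 days without Cre- SOL replicate 1, Cre- SOL replicate 2 or Cre- EDL replicate 2 (adjusted p = 0.0657, 0.197 and 0.181). Adipocyte markers, another source of PPAR transcripts, summed to between 147.7 and 252.5 CPM in Cre- EDL and between 325.2 and 811.0 in Cre- SOL, with 1, 1 and 4 of the 7 tested called lower in EDL after 2.5, 5.5 and 8.5 days and Ucp1 at 0 in Cre- libraries of 2.5 and 5.5 days. Liver transcripts were lower in EDL after 8.5 days, 12 of 12, and satellite cell markers on each day, 2 or 3 of 6. Schwann cell markers were higher in EDL after 2.5 and 5.5 days, 5 of 6, and after 2.5 days so were 3 of 6 fibroblast, 4 of 6 erythroid and 1 of 8 macrophage markers. The part of these cells in the values of the 10 genes was not tested.

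Prkaa2 went the other way. It was between 23.4 and 37.1 FPKM in Cre- EDL and between 13.8 and 20.9 in Cre- SOL, with no overlap, and its log2 fold change was 0.87 (adjusted p = 0.00806, edgeR), 0.97 (5.5 days, adjusted p = 0.000571) and 1.11 (8.5 days, adjusted p = 0.00188). The call of 2.5 days was lost without Cre- SOL replicate 1 (adjusted p = 0.0771) or Cre- EDL replicate 2 (adjusted p = 0.0512). Ppargc1a was higher in EDL after 5.5 days, at 6.46 and 5.61 against 4.05 and 4.34 FPKM (log2 fold change 0.64, adjusted p = 0.0119), a call lost without replicate 1 of either muscle (adjusted p = 0.102 and 0.104). After 8.5 days it was at 0.55 (adjusted p = 0.0596) and after 2.5 days at 0.31 (adjusted p = 0.311). Tfb2m was called higher in EDL after 8.5 days only, at 7.63 and 6.14 against 5.21 and 4.75 FPKM (0.55, adjusted p = 0.0493), a call lost without Cre- EDL replicate 1 (adjusted p = 0.272), Cre- SOL replicate 1 (adjusted p = 0.0768) or Cre- SOL replicate 2 (adjusted p = 0.222). Esrra, Ppargc1b, Ppard, Tfam and Nrf1 were not called on any day, with log2 fold changes between -0.37 and 0.21.

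**Figure D4:**
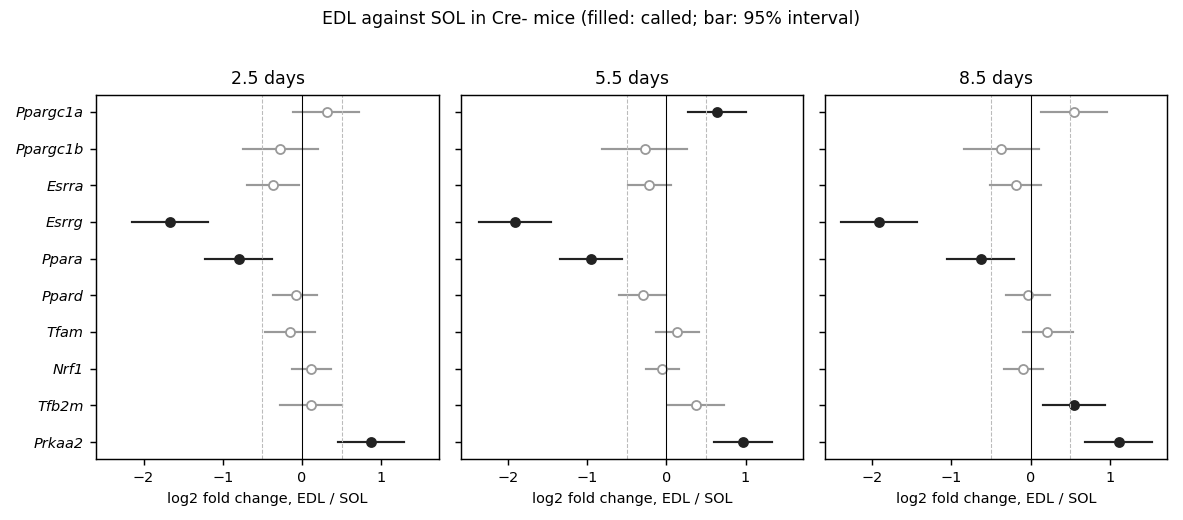
The log2 fold change of EDL over SOL in Cre- mice (x axis) is plotted for each gene after 2.5, 5.5 and 8.5 days, with 95% intervals, filled points for called genes, and dashed lines at 0.5 on either side of 0. Esrrg and Ppara lay left of 0 and Prkaa2 right of 0 on all 3 days.

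Within Cre- mice, which received Dox for the same times, 1 of the 10 genes was called between days, in SOL. Between 2.5 and 8.5 days 0 were called in EDL or SOL, by edgeR or DESeq2, against 0.748% and 3.63% of all genes. In EDL 1 and in SOL 3 of the 10 were under an unadjusted p of 0.05, against 1859 and 2970 of 15372 genes. Among the 10 genes Ppargc1b had the largest log2 fold change, 0.53 (95% interval 0.06 to 1.01, adjusted p = 0.34, edgeR) in EDL and 0.63 (0.16 to 1.1, adjusted p = 0.134) in SOL. Set against the mean of 2.5 and 8.5 days, 5.5 days gave 0 of 10 calls in EDL (5.74% of all genes, DESeq2 0) and 1 in SOL (6.54% of all genes). In EDL 2 of the 10 were under an unadjusted p of 0.05, against 3888 of 15478 genes. In that SOL comparison 3 of 6 fibroblast, 3 of 6 satellite cell and 1 of 6 endothelial markers were also called, all lower after 5.5 days. The part of these cells in the values of the 10 genes was not tested. The 1 member called was Ppara, at 13.9 and 12.8 FPKM after 5.5 days, above 10.5 and 9.54 after 2.5 days and 7.56 and 9.35 after 8.5 days (log2 fold change 0.65, standard error 0.15, adjusted p = 0.0212, edgeR). The call was lost with library size alone (0.53, adjusted p = 0.0585) and without either library of 5.5 days (adjusted p = 0.208 and 0.0871), replicate 2 of 2.5 days (adjusted p = 0.0881) or replicate 1 of 8.5 days (adjusted p = 0.0544).

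The wider network was read from 5 further lists. Of 46 other regulators, 5 were higher and 3 lower in Cre+ EDL after 2.5 days, and 3 were higher and 5 lower after 8.5 days, with list medians of -0.14 and -0.20. That is 17.4% of the list on each day, against 24% and 14.1% of all genes tested. Perm1, a muscle partner of PGC-1α and the estrogen-related receptors, was at 31.6 ± 6.73 FPKM (SD, n = 2) in Cre+ against 68.3 ± 0.748 in Cre- after 2.5 days (log2 fold change -1.43, adjusted p = 0.000254, edgeR) and fell after 8.5 days as well (-1.18, adjusted p = 0.00181). Lpin1, a phosphatidate phosphatase that also acts as a coactivator with PGC-1α, fell on both days (-1.30, adjusted p = 0.00141, and -1.36, adjusted p = 0.00219). Ppp3ca, a catalytic subunit of calcineurin, rose on both days, from 45.7 ± 2.05 to 97.9 ± 5.16 FPKM (SD, n = 2) after 2.5 days (0.77, adjusted p = 0.000416) and with a log2 fold change of 0.86 (adjusted p = 0.000394) after 8.5 days. Prkaa1, the other catalytic AMPK subunit, rose after 2.5 days (0.68, adjusted p = 0.00571) and was at 0.28 (adjusted p = 0.254) after 8.5 days. All 4 kept these calls of 2.5 days with library size alone. Without Cre- replicate 2 of 8.5 days 12 of the 46 were called lower on that day, and without replicate 1 of either genotype 2 were. Without Cre+ replicate 2 of 2.5 days 2 were called higher on that day, and without Cre+ replicate 1, 8 were higher and 6 lower.

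Enzymes and factors that copy and transcribe mtDNA, 30 genes beside Tfam and Tfb2m, had 4 called higher and 1 lower in EDL after 2.5 days and 0 higher and 2 lower after 8.5 days. These are 16.7% and 6.67% of the list, against 24% and 14.1% of all genes. Tfb1m, a methyltransferase of mitochondrial ribosomal RNA, rose after 2.5 days, from 5.15 ± 0.428 to 10 ± 1.81 FPKM (SD, n = 2; log2 fold change 0.62, adjusted p = 0.0122, edgeR), and Rnaseh1, which removes RNA from RNA-DNA hybrids, rose as well (0.66, adjusted p = 0.00613). After 8.5 days they were at 0.15 (adjusted p = 0.595) and 0.45 (adjusted p = 0.0654). Slirp, which stabilizes mitochondrial mRNA, fell after 2.5 days (-0.64, adjusted p = 0.00828), a call lost with library size alone (-0.31, adjusted p = 0.157), and was at -0.46 (adjusted p = 0.0644) after 8.5 days. With library size alone 11 of the 30 were called higher and 0 lower after 2.5 days, and 3 higher and 0 lower after 8.5 days. Over all 15372 genes that scaling gave 4207 higher and 610 lower, then 1956 higher and 542 lower. Under TMM, 0 were called higher without Cre+ replicate 2 of 2.5 days, 1 without Cre- replicate 1 and 2 without Cre- replicate 2. After 8.5 days the count called lower was 0 without replicate 1 of either genotype, 1 without Cre+ replicate 2 and 4, with 1 higher, without Cre- replicate 2. The 13 protein genes of mtDNA itself were not found among the 24537 genes under the symbols searched, and so were not analysed here.

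Genes that PPARs are known to regulate, 34 in all, had 2 called higher and 9 lower in EDL after 2.5 days and 0 higher and 11 lower after 8.5 days, with medians of -0.32 and -0.37. On each day 32.4% of the list was called, against 24% and 14.1% of all genes. With library size alone the counts were 4 higher and 4 lower, then 1 higher and 4 lower. Over all 15372 genes that scaling gave 4207 higher and 610 lower, then 1956 higher and 542 lower. Cpt1b, the muscle carnitine palmitoyltransferase that admits long-chain fatty acids to mitochondria, fell from 125.2 ± 8.68 to 75.4 ± 7.03 FPKM (SD, n = 2) after 2.5 days (log2 fold change -1.06, adjusted p = 0.000282, edgeR) and fell after 8.5 days (-0.65, adjusted p = 0.00984; -0.47 with library size alone, short of the fold limit). Slc27a1, a fatty acid transport protein, fell on both days (-1.06, adjusted p = 0.000671, and -1.0, adjusted p = 0.00203). Angptl4, a secreted inhibitor of lipoprotein lipase, rose after 2.5 days from 0.744 ± 0.283 to 6.84 ± 4.74 FPKM (SD, n = 2), with a log2 fold change of 2.85 (adjusted p = 0.00576), and Cpt1a, the liver form of Cpt1b, rose by 0.69 (adjusted p = 0.0451). Without Cre+ replicate 1 of 8.5 days 1 of the 34 was called lower on that day, and without Cre- replicate 1 of 8.5 days 5 were. Without replicate 2 of either genotype of 2.5 days 0 were called higher on that day. Between muscles of Cre- mice 30, 27 and 31 of the 34 were lower in EDL than in SOL after 2.5, 5.5 and 8.5 days, and 1 was higher after 5.5 days. The called share of the list was 88.2%, 82.4% and 91.2%, against 16%, 19.8% and 18.2% of all genes. The part of fiber type and of adipocytes in these counts was not tested.

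Nuclear OXPHOS subunits, 79 genes, had 69 called lower after 2.5 days and 65 after 8.5 days in EDL and 0 called higher, with medians of -0.74 and -0.73. The called share of the list was 87.3% and 82.3%, against 24% and 14.1% of all genes. With library size alone 20 and 43 were called lower and 0 higher. Over all 15372 genes that scaling gave 4207 higher and 610 lower, then 1956 higher and 542 lower. Without Cre+ replicate 1 of 8.5 days 17 were called lower on that day and without Cre- replicate 1 of 8.5 days 40, and without Cre+ replicate 2 of 2.5 days 45 were called lower on that earlier day. Cox6a2, the muscle form of a cytochrome c oxidase subunit, fell from 1393.0 ± 44 to 805.4 ± 30.7 FPKM (SD, n = 2) after 2.5 days (log2 fold change -1.12, adjusted p = 0.000625, edgeR) and fell after 8.5 days (-0.94, adjusted p = 0.00362). Atp5l, a subunit of ATP synthase, fell too (-1.31, adjusted p = 0.00877, and -1.17, adjusted p = 0.0253, edgeR, standard error 0.32 on both days). Its level was low, at 3.67 ± 0.425 FPKM (SD, n = 2) in Cre- and 1.84 ± 0.535 in Cre+ after 2.5 days. After 8.5 days it was at 3.75 ± 1.48 and 1.87 ± 0.286. Genes of fusion, fission and import, 33 in all, had 0 higher on either day, with 5 lower after 2.5 days (15.2% of the list, against 24% of all genes) and 8 after 8.5 days (24.2%, against 14.1%). Among them were Mief2, a receptor of the fission machinery (-1.22, adjusted p = 0.000151, and -0.61, adjusted p = 0.0156, the later call lost with library size alone at -0.44), and Mfn1, a GTPase of outer membrane fusion (-0.97, adjusted p = 0.000201, and -0.85, adjusted p = 0.000956). With library size alone this list had 4 higher and 2 lower, then 1 higher and 1 lower, against the counts over all genes given above for that scaling. Without replicate 1 of either genotype of 8.5 days 1 was called lower on that day, and without Cre+ replicate 2 of 2.5 days 3 were on the earlier day. Without Cre+ replicate 1 of 2.5 days 3 were called higher and 5 lower. In SOL 0 genes of the 5 lists were called by edgeR on either day. The median of the OXPHOS list there was -0.48 after 2.5 days and -0.19 after 8.5 days, with 69 and 8 of 79 genes at an unadjusted p under 0.05. Over all 15372 genes, 2053 and 1015 were at that level. The other 4 lists had between 0 and 18 genes at that level after 2.5 days and between 0 and 8 after 8.5 days. DESeq2 on the same libraries called 28 of 79 OXPHOS subunits and 6 of 34 PPAR targets lower in SOL after 2.5 days. It also called 1 regulator higher and 1 fusion, fission or import gene lower on that day, and 1 PPAR target lower after 8.5 days. Over all genes DESeq2 called 364 after 2.5 days and 168 after 8.5 days. The count of 0 in the lists thus depends on the tool.

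**Figure D5:**
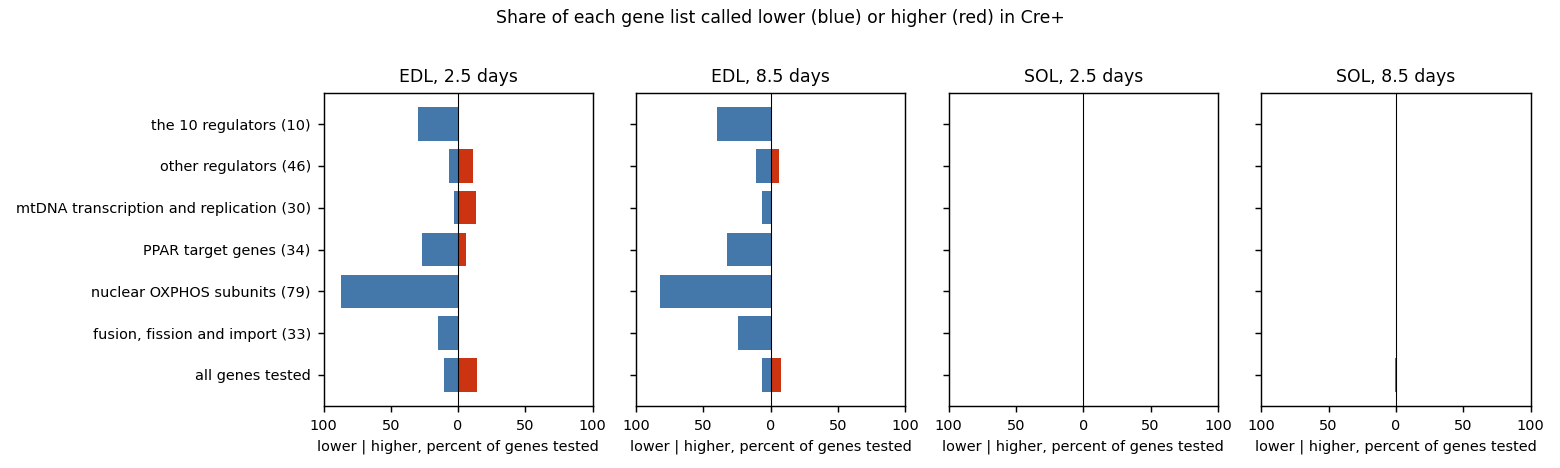
Bars give the percent of each gene list called lower (blue, to the left) or higher (red, to the right) in Cre+ under TMM scaling, for EDL and SOL after 2.5 and 8.5 days, with the number of genes in parentheses and all genes tested in the bottom row. In EDL 69 and 65 of 79 OXPHOS subunits were called lower, while the 46 other regulators were called in both directions.

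The genes most like each of 4 regulators were ranked by Pearson's r of TMM-scaled log2 CPM over the 24 libraries, among 11330 genes, as a description. The libraries share muscle, genotype and day, which all add to r, so no p is given. Ppargc1a was nearest to Cdc14a (0.927), Vldlr (0.922) and Fbxo3 (0.921), and Ppargc1b to Miga2 (0.903), Lzts1 (0.896) and Relt (0.869). For Esrra they were Txn2 (0.933), Mrpl55 (0.933) and Alkbh7 (0.927), and for Tfam they were Mrpl51 (0.929), Fopnl (0.915) and Chchd1 (0.913).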

How the data were processed

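Per the labels, polyA RNA of whole muscles was sequenced as stranded single-end reads from TruSeq libraries, and the submitters' processing notes name FastQC 0.11.2, STAR 2.5.3a, HOMER and the build mm10. The deposited table holds raw read counts per gene as the authors made them, 24 columns and 24537 genes, 1 RefSeq record per gene. Total counts were 36088781 to 54679082 per library, and 3 counts (0.0549 to 0.0831 CPM) are the limit that a count of 0 allows, for counting error only. From the counts, FPKM was computed with the total count and the exon length of each gene.

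Counts were fitted in R 4.3.3 with edgeR 4.0.16 (TMM scaling, filter at a minimum count of 10, quasi-likelihood test, prior count 2), with Benjamini-Hochberg adjustment over all genes tested. The 16 libraries of 2.5 and 8.5 days shared 1 fit of 8 groups (15372 genes), which follows the study's removal of the middle time. Comparisons that use 5.5 days come from a fit of all 24 libraries (15478 genes). A gene was called at an adjusted p under 0.05 with an absolute log2 fold change over 0.5. DESeq2 1.42.0 was an alternative. The test was also run on simulated counts. These had few changed genes, with signs drawn at random, so that run does not check the scaling of libraries. Intervals are 95% intervals of the fit.

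The members, gene lists, markers and tests were chosen with earlier results of these data known. Members are the 10 genes of the rule. From each other list, the 2 called genes with the largest rise and the 2 with the largest fall in EDL after 2.5 days were named, among those whose mean reached 1 FPKM and with no overlap of Cre+ and Cre- libraries on that day, and the readings of those lists under the alternative settings were added after seeing the data. The labels name 2 replicates per group and do not say more on how they were separated. The study gives 2 independent biological samples for its plots of OSKM level. The p values measure the spread between libraries of a group, shared across genes and groups. No 2 libraries of a group agreed within sampling noise. Replicate numbers are shared between groups. Deviations of EDL and SOL libraries of the same genotype, day and number correlated at 0.173 to 0.445 in all 6 cases, over 15478 genes. The numbers were thus read as pairing muscles, but the main fits had no replicate block. Their intervals and p values between muscles leave this pairing out, and a fit with it was an alternative. Deviations of Cre+ and Cre- libraries correlated at -0.169 to 0.0578, so the numbers were not taken to pair genotypes. Sequences and gene coordinates are those of RefSeq on GRCm38.p6, the assembly that mm10 is made from. Alternatives were other scalings, filters, thresholds, sets of libraries, replicate blocks and tools, and each library left out in turn.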

Additional observations from a re-analysis of the deposited data

How the results depend on the processing

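Counts of the 10 genes called moved by more than 1.5 times under 11 of 199 other settings and 15 of 88 fits with 1 library left out, and 0 of their log2 fold changes reversed a call. In EDL after 2.5 days, 3 genes were called, and 1 with an adjusted p under 0.01 or with library size alone. Over all 15372 genes, 2375 were called at an adjusted p under 0.01, and 4207 higher and 610 lower with library size alone. After 8.5 days 4 were called, and 2 with an adjusted p under 0.01, with library size alone, with edgeR on the libraries of the comparison or with libraries of 1 muscle. Over all 15372 genes, 1083 were called at an adjusted p under 0.01, and 1956 higher and 542 lower with library size alone. Between muscles of Cre- mice after 8.5 days 4 were called, and 2 with an adjusted p under 0.01 or with edgeR or DESeq2 on the libraries of the comparison. Over all 15372 genes, 1540 were called there at an adjusted p under 0.01. For 5.5 days against the mean of 2.5 and 8.5 days in Cre- SOL 1 was called, and 0 with an adjusted p under 0.01 or library size alone. With 1 library left out, these counts ran from 1 to 2, 1 to 7, 2 to 4 and 0 to 1. They ran from 1 to 3 between muscles after 2.5 days, from 0 to 1 for the change in EDL minus that in SOL after 2.5 days and from 0 to 1 for 5.5 days in Cre- EDL (Tfb2m, 0.51, adjusted p = 0.0486, without Cre- EDL replicate 1 of 8.5 days). The calls of Ppargc1a in EDL on both days, and of Esrrg between muscles on all 3 days, held under every setting run. Counts over all genes in the fits with 1 library left out are not given here.

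With the replicate number as a block, 2 genes were called in EDL after 2.5 days (Ppargc1b lost its call, adjusted p = 0.0562), 4 after 8.5 days, and 3 between muscles after 8.5 days (Tfb2m lost its call, adjusted p = 0.0579), and no other call among the 10 genes changed. With the block within genotype and day, which pairs the muscles, no call among them changed.

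Over all genes, the number called in SOL was 59 after 2.5 days and 97 after 8.5 days, against 364 and 168 by DESeq2 on the same 16 libraries, 537 and 227 by DESeq2 on the libraries of the comparison and 86 and 0 by edgeR on them. In EDL it was 3684 and 2172, against 2434 and 1021 by edgeR on the libraries of the comparison. Between muscles library size alone moved the calls from 1251 higher and 1209 lower to 966 and 1550 after 2.5 days, from 1486 and 1572 to 1092 and 1967 after 5.5 days and from 1330 and 1465 to 988 and 1800 after 8.5 days. With TMM-scaled FPKM, 51 of 120 group means of the 10 genes moved by more than the spread between replicates. The cause of these moves was not tested. With 2 libraries per group the spread is borrowed across genes, a lone library in a left-out fit is assumed to vary like the other groups, and counts near each limit depend on 1 library.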
